A study of Homo sapiens with 6 samples.

Results

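The enzymes that write, maintain and oxidise DNA methylation were examined as 10 genes out of the 60675 gene identifiers in the count files. They were the methylcytosine dioxygenases TET1, TET2 and TET3, the DNA methyltransferases DNMT1, DNMT3A and DNMT3B, the maintenance factor UHRF1, the DNA glycosylase TDG and the isocitrate dehydrogenases IDH1 and IDH2. The genes were listed by name, with earlier results of these data known. All 10 passed the filter on low counts and were tested among 15261 genes. RNA came from 3 wells of MDA-MB-231 cells given 100 μM vitamin C (sodium ascorbate) for 3 days, with the medium renewed daily, and from 3 control wells without added vitamin C. MDA-MB-231 is an established human breast cancer cell line that lacks hormone receptors and has mesenchymal features, and both groups were the same unmodified line. RNA was depleted of ribosomal RNA and sequenced as paired reads, and the experiment asked how the transcriptome shifts when the TET cofactor is supplied. The sources used here do not say whether the 3 wells of a group came from separate cultures, so the p-values cover only variation among these wells, and that variation may be technical.

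Methylation of cytosine at CpG sites is laid down by the de novo methyltransferases DNMT3A and DNMT3B and copied to the new strand at replication by DNMT1, which UHRF1 brings to half-methylated sites. The TET enzymes oxidise the methyl group to hydroxymethyl, formyl and carboxyl forms, and TDG removes the formyl and carboxyl bases so that base excision repair can restore cytosine. TET enzymes need iron in its reduced form and 2-oxoglutarate, which IDH1 makes in the cytosol and IDH2 in mitochondria, and vitamin C keeps the iron reduced. Vitamin C thus acts on the TET proteins as a cofactor, and the counts here measure only the mRNA of each gene.

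Since CpG is the site at which the DNMT and TET enzymes act, the CpG content of promoters of the 10 genes was examined. It was read from RefSeq windows of 300 bases on GRCh38.p14, from 250 bases before to 50 bases after a start site. For 8 of the 10 genes the start site of a window was that of the GENCODE 44 canonical transcript, and the dinucleotide CG, which reads the same on both strands, was counted in it. The median over all 35116 windows was 14. The windows of DNMT3A, the gene with the largest difference between the groups among the 10, and of the TET genes are shown 5′ to 3′ on the strand of the gene with each CG in capitals.
DNMT3A, chr2:25341876-25342175 (minus strand): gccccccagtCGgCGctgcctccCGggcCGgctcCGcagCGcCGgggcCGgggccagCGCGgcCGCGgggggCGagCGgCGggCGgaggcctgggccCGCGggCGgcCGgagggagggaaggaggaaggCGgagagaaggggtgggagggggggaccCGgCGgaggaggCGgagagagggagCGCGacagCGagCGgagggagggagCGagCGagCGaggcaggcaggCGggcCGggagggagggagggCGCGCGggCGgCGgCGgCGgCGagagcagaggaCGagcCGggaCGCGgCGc
TET1, chr10:68560087-68560386 (plus strand): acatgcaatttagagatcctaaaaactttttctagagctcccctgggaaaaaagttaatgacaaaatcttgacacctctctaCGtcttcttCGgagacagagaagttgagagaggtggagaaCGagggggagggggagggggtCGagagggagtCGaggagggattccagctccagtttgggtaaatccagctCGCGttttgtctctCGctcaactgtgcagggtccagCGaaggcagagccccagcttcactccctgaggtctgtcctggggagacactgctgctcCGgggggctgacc
TET2, chr4:105146626-105146925 (plus strand): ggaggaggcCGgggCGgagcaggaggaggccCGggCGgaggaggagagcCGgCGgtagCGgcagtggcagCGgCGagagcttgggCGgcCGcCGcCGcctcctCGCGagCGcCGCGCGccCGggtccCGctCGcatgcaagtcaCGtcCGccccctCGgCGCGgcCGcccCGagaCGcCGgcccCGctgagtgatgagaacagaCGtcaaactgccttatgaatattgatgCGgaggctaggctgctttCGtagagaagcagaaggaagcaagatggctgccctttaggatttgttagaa
TET3, chr2:73984660-73984959 (plus strand): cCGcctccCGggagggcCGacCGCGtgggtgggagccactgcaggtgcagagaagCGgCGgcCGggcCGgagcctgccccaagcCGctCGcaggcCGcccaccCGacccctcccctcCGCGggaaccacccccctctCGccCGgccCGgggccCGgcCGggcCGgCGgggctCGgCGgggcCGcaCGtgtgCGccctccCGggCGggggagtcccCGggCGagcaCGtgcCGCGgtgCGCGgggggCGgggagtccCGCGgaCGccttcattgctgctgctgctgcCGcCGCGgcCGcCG
DNMT3A held 46 CG, a number reached by 2.89% of all windows, and TET3 held 45. TET2 held 35 and TET1 held 10, the lowest of the 8 genes, while DNMT1, UHRF1, TDG and IDH1 held 30, 36, 22 and 20. Methylation of these windows was not measured in the counts.

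Gene counts numbered 13434130 to 19553914 in the vitamin C libraries and 17664345 to 22373591 in the control libraries. Reads that did not map made up 40.7%, 49.5% and 24.7% of vitamin C 1, 2 and 3, against 24.2% to 34.4% in the controls. All 5 markers of the line were abundant, with VIM, a mesenchymal filament protein, at 1186 to 1316 CPM (each count divided by the TMM-adjusted size of its library). ESR1, the oestrogen receptor, had no count in any library, and PGR, the progesterone receptor, had at most 0.201 CPM. The 7 luminal markers summed to 271 to 287 CPM in vitamin C-treated cells, against 195 to 228 CPM in control cells. Among them, over the 6 libraries, KRT8 was at 130 to 194 CPM, ERBB2 at 38.8 to 50.1 CPM and EPCAM at 21.2 to 35.5 CPM. In vitamin C-treated cells the 4 fibroblast markers summed to 12.5 to 14.4 CPM, the 3 leukocyte markers to 1.26 to 2.01 CPM and the 2 endothelial markers to 1.96 to 2.16 CPM, against 6.72 to 10.9 CPM, 0.683 to 1.39 CPM and 0.683 to 1.29 CPM in control cells. DCN, a fibroblast marker, was at 0 in all 6 libraries, while PDGFRB of the same list was at 5.86 to 13.2 CPM. PTPRC, the pan-leukocyte marker, reached at most 0.148 CPM, while CD14 was at 0.683 to 1.96 CPM. VWF, an endothelial marker, reached at most 0.114 CPM, while PECAM1 was at 0.569 to 2.16 CPM. All libraries came from 1 cultured line, and the part of these markers in the results was not tested. In such bulk RNA a change in some cells of the line and a change in all of them cannot be told apart.

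Per kilobase of canonical transcript, DNMT1 was the most abundant of the 10 genes and TET1 the least. DNMT1 was at 99.2 ± 15.1 RPKM (CPM divided by transcript length in kilobases) in vitamin C-treated cells and 89.0 ± 9.36 RPKM in control cells (SD, n = 3 each). TET1 was at 0.590 ± 0.0121 RPKM in vitamin C-treated cells and 0.579 ± 0.110 RPKM in control cells. In control cells UHRF1 (26.9 ± 3.29 RPKM) and IDH1 (26.4 ± 4.54 RPKM) followed DNMT1 and overlapped, then came TDG at 13.3 ± 0.832, IDH2 at 9.49 ± 1.54 and TET2 at 6.06 ± 0.427 RPKM. DNMT3B at 2.45 ± 0.214 and TET3 at 2.28 ± 0.330 RPKM overlapped, and DNMT3A was at 1.18 ± 0.163 RPKM. In vitamin C-treated cells IDH1 (35.1 ± 6.24 RPKM) lay above UHRF1 (23.7 ± 4.25 RPKM) and DNMT3B (3.26 ± 0.107 RPKM) lay above TET3 (2.34 ± 0.449 RPKM), without overlap in either pair. The order depended in its middle on the length used. Over the union of all annotated exons TET2 in control cells was at 3.53 ± 0.248 RPKM and DNMT1 at 30.5 ± 3.21 RPKM, and TET3 (2.13 ± 0.307) stood above DNMT3B (1.54 ± 0.135).

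**Figure D1:**
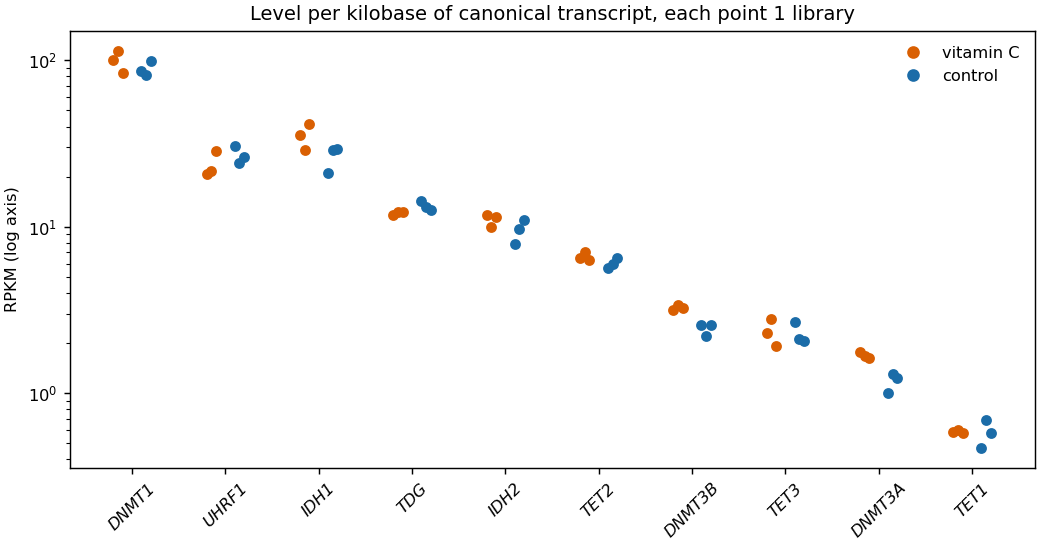
Level of the 10 genes per kilobase of canonical transcript, on a log axis, ordered by the control mean. Each point is 1 library, with vitamin C in orange left of control in blue; DNMT1 lies near 100 RPKM, while TET1 lies under 1 RPKM in every library.

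The transcripts of the 3 TET enzymes, the direct targets of the cofactor, did not pass the test after vitamin C treatment. TET2, the most abundant of the 3, was at 62.2, 67.8 and 60.6 CPM in vitamin C 1, 2 and 3, against 54.4, 57.4 and 62.5 CPM in control 1, 2 and 3. The groups overlapped through control 3, and the log2 ratio of vitamin C to control was 0.13 (SE 0.08, edgeR adjusted p = 0.341). TET3 was at 27.7, 33.8 and 23.0 CPM in the vitamin C libraries, against 32.1, 25.7 and 24.9 CPM in the control libraries. Vitamin C 2 was the highest and vitamin C 3 the lowest of the 6, and the log2 fold change was 0.03 (SE 0.14, adjusted p = 0.920). TET1 was at 5.63, 5.80 and 5.57 CPM in the vitamin C libraries, against 4.50, 6.61 and 5.57 CPM in the control libraries. The vitamin C values lay inside the control range, at 76 to 149 counts per library, and the log2 fold change was 0.02 (SE 0.17) with an adjusted p of 0.956.

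The 95% interval of the fold change was 0.788 to 1.30 for TET1, 0.964 to 1.24 for TET2 and 0.823 to 1.26 for TET3. Of the summed TET level per kilobase of canonical transcript, TET2 made up 69.5% ± 2.14 in vitamin C-treated cells and 67.9% ± 3.36 in control cells (SD, n = 3 each). TET3 made up 24.3% ± 2.55 and TET1 6.20% ± 0.415 in vitamin C-treated cells, against 25.6% ± 4.06 and 6.49% ± 1.26 in control cells. These shares differed by less than the spread between wells. Over the union of exons the TET2 share was lower, at 58.4% ± 2.41 in vitamin C-treated cells and 56.6% ± 3.72 in control cells.

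TDG, which excises the bases that TET enzymes have oxidised, was slightly below the controls in every vitamin C library. It was at 37.7, 38.8 and 39.1 CPM in the vitamin C libraries, against 45.3, 41.6 and 40.2 CPM in the control libraries. The groups did not overlap, yet the gap between the nearest wells was small, and the log2 fold change was -0.14 (SE 0.08, edgeR adjusted p = 0.305). Of all genes tested, 32.3% had groups that did not overlap in either direction, and among the 10 genes these were TDG, DNMT3A and DNMT3B. A processed pseudogene, TDGP1, had 6 to 21 counts per library, and reads that matched several positions were not counted for any gene.

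The de novo methyltransferases DNMT3A and DNMT3B had the smallest p-values of the 10 genes, and both were higher after vitamin C treatment. DNMT3A was at 16.6, 15.7 and 15.4 CPM in the vitamin C libraries, against 9.39, 12.3 and 11.6 CPM in the control libraries. Every vitamin C library lay above every control, with control 1 the lowest of the 6. The log2 fold change was 0.51 (SE 0.12, edgeR adjusted p = 0.0351), a fold change of 1.42 with a 95% interval of 1.18 to 1.71, and DESeq2 also called the gene (adjusted p = 0.0200). DNMT3B was at 13.7, 14.6 and 14.1 CPM in the vitamin C libraries, against 11.1, 9.54 and 11.2 CPM in the control libraries. The groups again did not overlap, and the log2 fold change was 0.42 (SE 0.11, edgeR adjusted p = 0.0482), a fold change of 1.33 with a 95% interval of 1.12 to 1.58. DNMT3B did not pass in DESeq2 (adjusted p = 0.0692). The rule of the study asks for both tools, but the sources used here do not name its edgeR test. With the edgeR fit reported here, both tools called 1 gene of the 10, DNMT3A. Of all genes tested, 2.98% were called higher by both tools. IDH1 did not pass in that fit but passed edgeR's exact test (adjusted p = 0.0464), its likelihood ratio test (0.0450) and DESeq2 (0.0433).

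By edgeR, 2 of the 10 genes were called higher, where 3.6% of all genes tested were, and none was called lower, where 3.48% of all genes were. In either direction 7.08% of all genes were called, and 6.34% by both tools. At an unadjusted p under 0.05, 3 of the 10 genes were higher and none was lower, against 27.4% of all genes in either direction. DESeq2 called 2 of the 10 higher, DNMT3A and IDH1, and none lower, where 4.35% of the genes to which it gave an adjusted p were called higher and 10.7% in either direction. The median log2 fold change of the 10 genes was 0.14, beside 0.02 over all genes tested. The counts of the 10 genes were not tested against this background.

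The calls of DNMT3A and DNMT3B lay near the threshold and depended on single wells. DNMT3A passed without vitamin C 3 (adjusted p = 0.0265) and did not pass without control 1 (0.122), control 2 (0.0722), control 3 (0.0586), vitamin C 1 (0.0979) or vitamin C 2 (0.0610), while its log2 fold change stayed between 0.40 and 0.59. Over all 19 alternative settings its adjusted p ran from 0.00484 to 0.122. DNMT3B did not pass when any single library was left out (adjusted p = 0.0529 to 0.177), with log2 fold changes of 0.34 to 0.45, and its adjusted p ran from 0.0167 to 0.177 over the 19 settings. Leaving out a well also moved the number of calls over all genes, from 1080 with every library to between 128 without control 1 and 1900 without vitamin C 3. Per kilobase of canonical transcript, DNMT3B made up 65.9% ± 1.46 of the summed DNMT3A and DNMT3B level in vitamin C-treated cells and 67.4% ± 4.64 in control cells (SD, n = 3 each), with overlap between the groups.

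**Figure D2:**
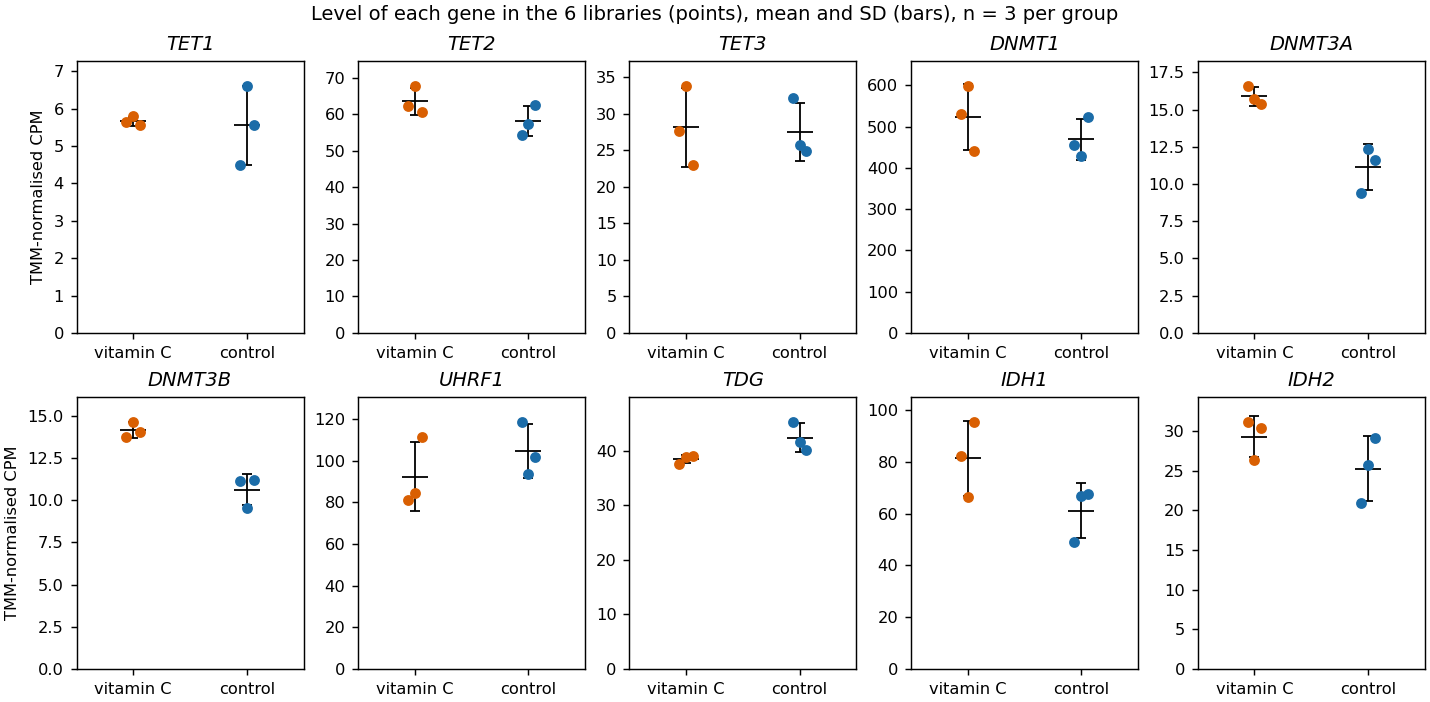
TMM-normalised CPM of each of the 10 genes in the 3 vitamin C libraries (orange, left) and the 3 control libraries (blue, right), each axis starting at 0. Points are libraries, horizontal lines are means and bars are SD (n = 3 each); the groups stand apart for DNMT3A, DNMT3B and TDG and overlap for the other 7 genes.

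The maintenance pair, DNMT1 and UHRF1, did not pass the test, and in both the vitamin C libraries differed among themselves as much as from the controls. DNMT1 was at 529.5, 599 and 441 CPM in vitamin C 1, 2 and 3, against 454, 429 and 525 CPM in control 1, 2 and 3. Vitamin C 1 and 2 were the highest of the 6 while vitamin C 3 lay inside the control range, and the log2 fold change was 0.16 (SE 0.11, edgeR adjusted p = 0.392). UHRF1 was at 81.2, 84.7 and 111 CPM in the vitamin C libraries, against 119, 93.6 and 102 CPM in the control libraries. Here vitamin C 1 and 2 were the lowest of the 6 and vitamin C 3 lay among the controls, and the log2 fold change was -0.18 (SE 0.12) at an adjusted p of 0.383. Without vitamin C 3, UHRF1 was called lower (log2 fold change -0.34, adjusted p = 0.0488), and DNMT1 had a log2 fold change of 0.26 (adjusted p = 0.0868).

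Vitamin C 1 and 2 were also the shallowest libraries and those with the largest share of unmapped reads. MKI67, a proliferation marker chosen here after its values were seen, varied over the libraries like DNMT1, at 2568, 2866 and 1977 CPM in the vitamin C libraries, against 1798, 1840 and 2142 CPM in the control libraries. Of the 20 S phase genes to whose list it belongs, 15 had a log2 fold change below 0, while that of MKI67 was 0.36. The part of depth, unmapped reads and cell cycle state in the DNMT1 and UHRF1 values was not tested. DNMT1 made up 95.2% ± 0.639 of the summed level of the 3 methyltransferases per kilobase of canonical transcript in vitamin C-treated cells and 96.1% ± 0.222 in control cells (SD, n = 3 each). The share ran from 94.5% to 95.7% in the vitamin C libraries and from 95.9% to 96.3% in the control libraries. It was thus lower in every vitamin C library. The rest of that sum is DNMT3A and DNMT3B, both higher in every vitamin C library, so the share is not independent of their values.

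**Figure D3:**
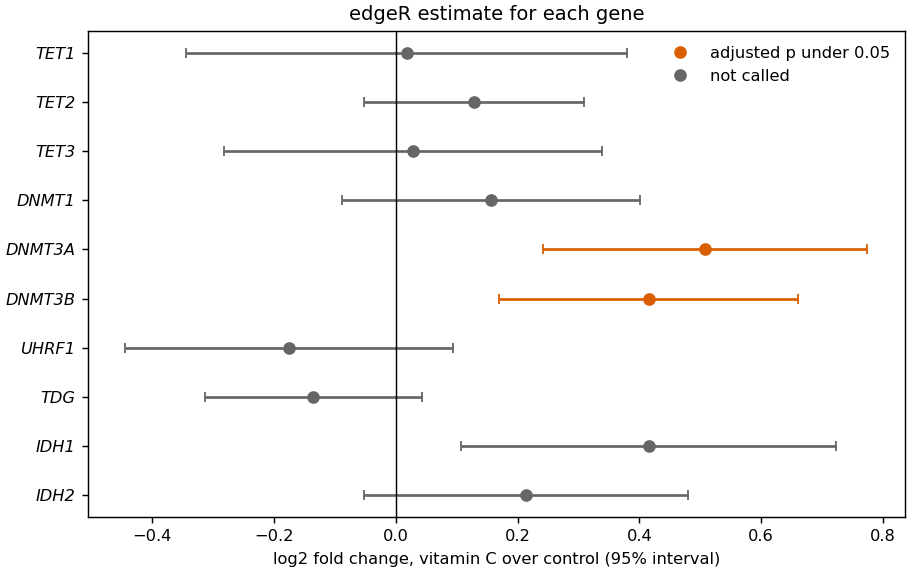
Difference between vitamin C and control libraries for each of the 10 genes as a log2 fold change with its 95% interval, from edgeR on 3 libraries per group. Orange marks an adjusted p under 0.05, reached by DNMT3A at 0.51 and DNMT3B at 0.42; the interval of IDH1 also lies above 0 but its adjusted p is 0.0887.

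IDH1, which makes 2-oxoglutarate in the cytosol, was higher on average in vitamin C-treated cells, but its call depended on the tool and on single wells. It was at 82.3, 66.6 and 95.4 CPM in the vitamin C libraries, against 49.0, 66.9 and 67.5 CPM in the control libraries. Vitamin C 2 lay among the controls, and control 1 was the lowest of the 6. The log2 fold change was 0.41 (SE 0.14, edgeR adjusted p = 0.0887), and DESeq2 called the gene higher (log2 fold change 0.40, adjusted p = 0.0433), while edgeR called it without vitamin C 2 (adjusted p = 0.0471). IDH2, the mitochondrial enzyme, was at 31.1, 26.3 and 30.4 CPM in the vitamin C libraries, against 20.9, 25.7 and 29.0 CPM in the control libraries. The groups overlapped, and the log2 fold change was 0.21 (SE 0.12, adjusted p = 0.282). Per kilobase of canonical transcript, IDH1 made up 76.0% ± 2.06 of the summed level of the pair in vitamin C-treated cells and 73.5% ± 1.21 in control cells (SD, n = 3 each), with overlap between the groups.

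**Figure D4:**
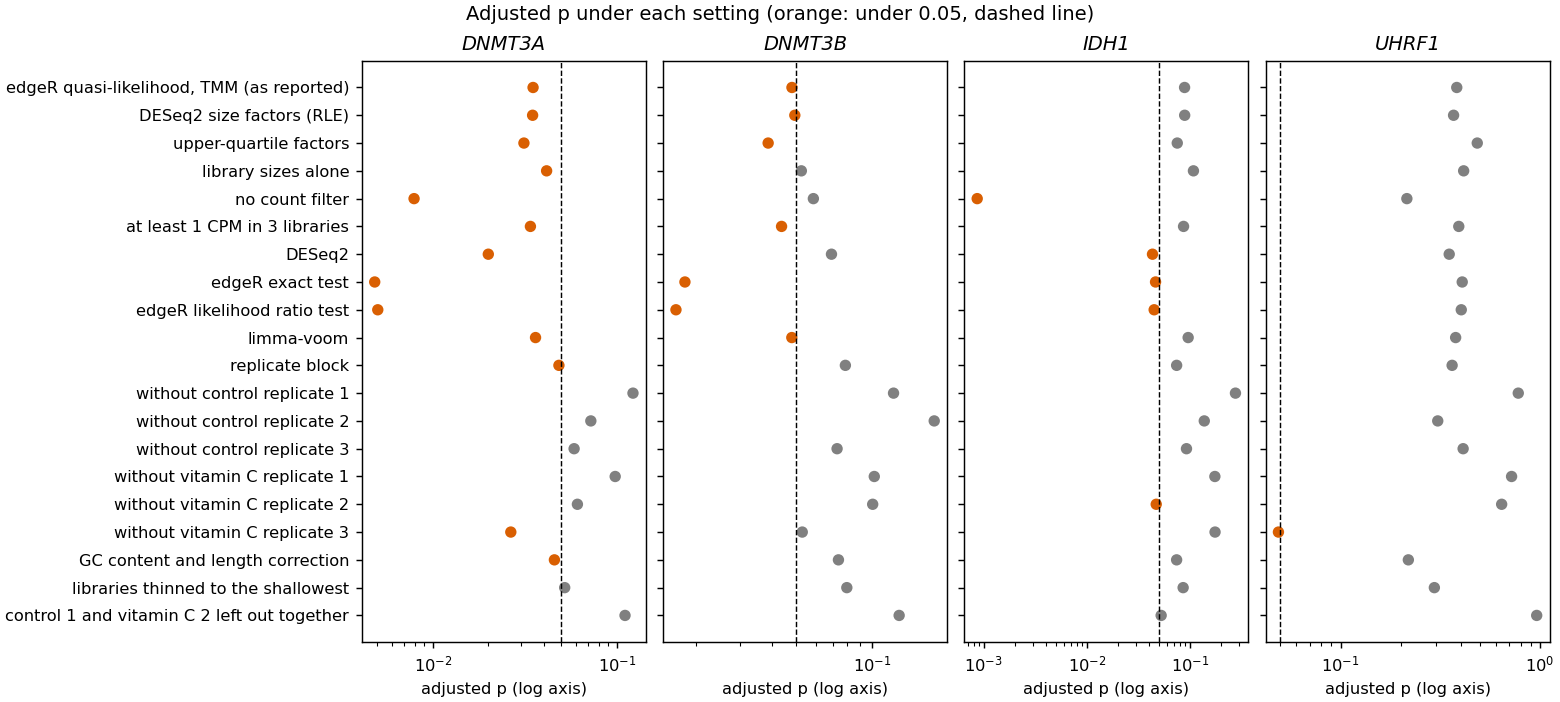
Adjusted p of DNMT3A, DNMT3B, IDH1 and UHRF1 under the reported fit and each of 19 other settings, on a log axis, with a dashed line at 0.05 and orange for values under it. DNMT3A is orange in 12 of the 19 other settings, DNMT3B in 6, IDH1 in 5 and UHRF1 in 1.

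Exon bases of 3 of the 10 genes also belong to another counted gene, and reads over those bases are uncertain in their assignment. TET3 shares 390 exon bases with a non-coding gene of 8 to 14 counts per library, DNMT1 shares 83 with S1PR2, which had 27 to 56 counts, and IDH1 shares 94 with IDH1-AS1 on the opposite strand, which had 2 to 9 counts. The genes lie apart in the genome. On GRCh38, TET1 lies on chromosome 10 (68560337 to 68694487), TET2 on chromosome 4 (105145875 to 105279816), TDG on chromosome 12 (103965822 to 103988874), DNMT3B on chromosome 20 (32762385 to 32809359) and IDH2 on chromosome 15 (90083045 to 90102477). Chromosome 2 holds TET3 (73984910 to 74108176), DNMT3A (25227855 to 25342590) and IDH1 (208236229 to 208266074), and chromosome 19 holds DNMT1 (10133342 to 10231286) and UHRF1 (4903080 to 4962154).

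Among 9 lists of genes that work with these enzymes or depend on them, 10 of 111 distinct genes tested passed the edgeR test (9.01%, beside 7.08% of all genes), 3 higher and 7 lower after vitamin C treatment. For each list, the shares over all genes were 3.6% higher and 3.48% lower by edgeR and 27.4% in either direction at an unadjusted p under 0.05. Of 10 partners and regulators of TET enzymes, 8 were tested, and WT1, a transcription factor that binds TET2, was the 1 called, in the higher direction. WT1 was at 18.5, 17.8 and 20.3 CPM in the vitamin C libraries, against 13.4, 14.2 and 14.3 CPM in the control libraries (log2 fold change 0.43, SE 0.10, adjusted p = 0.0319). These partners had 1 gene higher and 3 lower at an unadjusted p under 0.05, 1 higher and none lower by DESeq2, and a median log2 fold change of -0.00. Of 14 tested base excision repair genes none was called by edgeR, with 1 higher and 3 lower at an unadjusted p under 0.05 and 1 lower by DESeq2. The smallest p-values there were those of UNG, the uracil glycosylase, with a log2 fold change of -0.41 (adjusted p = 0.0628), and LIG1, a DNA ligase of replication and repair, with 0.30 (adjusted p = 0.0750).

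Of 13 tested partners of maintenance and de novo methylation none was called by edgeR, with 2 higher and 4 lower at an unadjusted p under 0.05 and 2 lower by DESeq2. PCLAF, a partner of the replication clamp, was closest to the threshold with a log2 fold change of -0.42 (adjusted p = 0.0509), followed by CDCA7L with -0.22 (adjusted p = 0.0798). Their median log2 fold change was -0.11. Of 10 readers of methylated DNA none was called by edgeR, with 2 higher and none lower at an unadjusted p under 0.05 and 1 higher by DESeq2. ZBTB4, a zinc finger protein that binds methylated CpG, had a log2 fold change of 0.28 (adjusted p = 0.0559) and MBD5 one of 0.29 (adjusted p = 0.103).

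Among 24 tested genes that make or use 2-oxoglutarate or its inhibitory relatives, 2 were lower and none was higher by edgeR. At an unadjusted p under 0.05, 1 was higher and 9 were lower, and by DESeq2 none was higher and 3 were lower. The 2 genes called by edgeR were 8.33% of the list, near the 7.08% over all genes. GLUD1, glutamate dehydrogenase, was at 138, 122 and 159 CPM in the vitamin C libraries, against 197, 182 and 170 CPM in the control libraries (log2 fold change -0.39, SE 0.10, adjusted p = 0.0404). GPT2, a mitochondrial alanine aminotransferase, had a log2 fold change of -0.42 (adjusted p = 0.0487). Both enzymes convert glutamate and 2-oxoglutarate into each other, and GLUD1 has a near-identical copy, GLUD2, that makes its counts uncertain. Among 10 tested genes of methyl donor supply, 2 were lower and none was higher by edgeR. At an unadjusted p under 0.05, 1 was higher and 3 were lower, and by DESeq2 none was higher and 2 were lower. AHCY, which clears the inhibitory product of methyltransferases, was at 142, 136 and 136 CPM in the vitamin C libraries, against 185, 181 and 167 CPM in the control libraries (log2 fold change -0.37, SE 0.07, adjusted p = 0.0196). SHMT2, the mitochondrial serine hydroxymethyltransferase, had a log2 fold change of -0.32 (adjusted p = 0.0374).

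Of 14 genes that import, store or export vitamin C, iron and related cofactors, 12 were tested, and 2 were higher and 2 lower by edgeR. At an unadjusted p under 0.05, 3 were higher and 4 were lower, and by DESeq2 2 were higher and 3 were lower. SLC40A1, the iron exporter, had a log2 fold change of 0.71 (adjusted p = 0.0372) and FTH1, ferritin heavy chain, one of 0.45 (adjusted p = 0.0443). FTH1 has many near-identical processed pseudogenes, so its counts are uncertain. TFRC, the transferrin receptor, had a log2 fold change of -0.52 (adjusted p = 0.0102) and SLC2A1, a glucose transporter that also carries oxidised vitamin C, one of -0.42 (adjusted p = 0.0108). SLC23A2, the vitamin C transporter, chosen here after its value was seen, was at 49.0, 52.2 and 48.8 CPM in the vitamin C libraries, against 55.2, 53.3 and 53.6 CPM in the control libraries (log2 fold change -0.11, adjusted p = 0.351).

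Of 20 S phase genes, GINS2, a subunit of the replicative helicase, was the 1 called, at 16.2, 14.8 and 15.3 CPM in the vitamin C libraries, against 24.7, 21.8 and 23.0 CPM in the control libraries (log2 fold change -0.58, SE 0.10, adjusted p = 0.0106). No S phase gene was called higher by edgeR, while MKI67 was higher at an unadjusted p under 0.05 and by DESeq2 (adjusted p = 0.0386). In the lower direction 4 passed at an unadjusted p under 0.05 and 2 by DESeq2, and the median log2 fold change was -0.12. Of these 10 called genes of the lists, the number that still passed was 3 when control 1 was left out, 2 for control 2, 6 for control 3, 3 for vitamin C 1, 6 for vitamin C 2 and 9 for vitamin C 3. GINS2 and TFRC passed without any single library, and all 10 kept their direction.

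Most germline genes that DNA methylation silences in body cells had few or no counts in both groups, with MAEL as the exception. Of 25 such genes, 8 had no count in any library and 2 passed the filter on low counts, neither of them called, with none at an unadjusted p under 0.05 and none by DESeq2. MAEL, a factor of transposon silencing in germ cells, was the most abundant, at 3.71, 2.46 and 4.37 CPM in the vitamin C libraries, against 3.25, 3.29 and 3.43 CPM in the control libraries. STK31 followed at 0.815, 1.01 and 0.953 CPM in the vitamin C libraries, against 0.569, 0.843 and 0.845 CPM in the control libraries, and TDRD6 had at most 1.11 CPM. The 25 genes together summed to 7.34, 4.998 and 6.57 CPM in the vitamin C libraries, against 5.01, 5.46 and 5.47 CPM in the control libraries, and the groups overlapped. The MAGEA, GAGE, SSX and CTAG genes among them belong to families of near-identical copies, so their counts are uncertain.

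**Figure D5:**
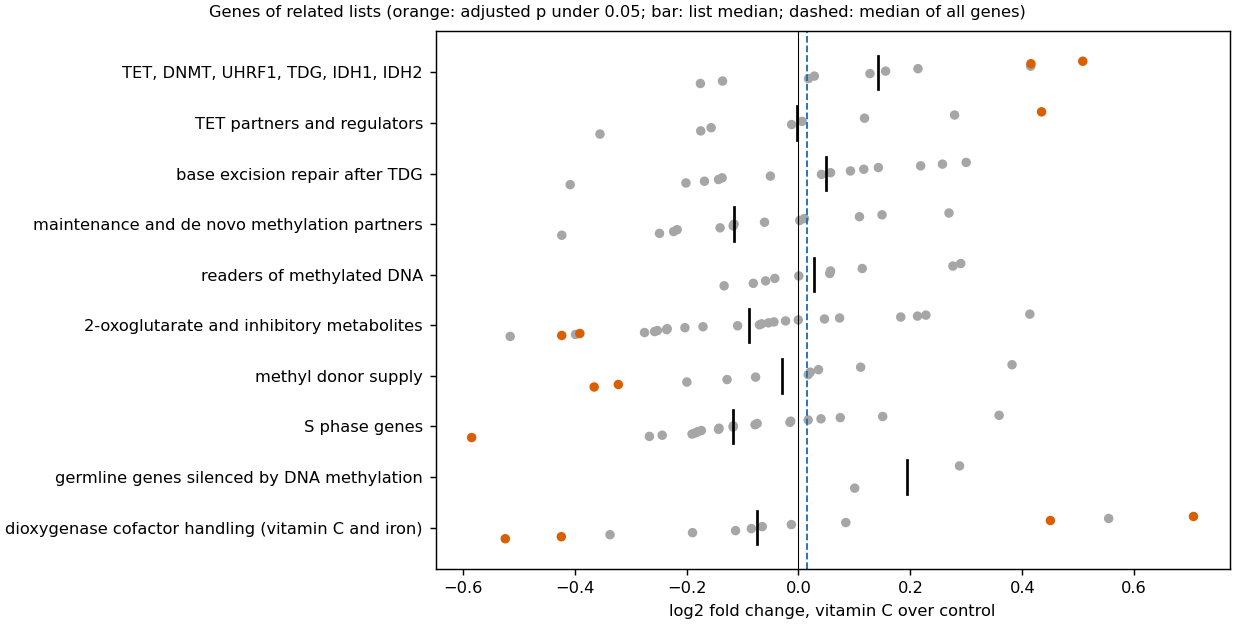
Vitamin C against control, as a log2 fold change, for each tested gene among the 10 genes (top row) and of 9 lists of related genes. Orange marks an adjusted p under 0.05, short bars are list medians and the dashed line is the median of all genes tested at 0.02. Called genes lie above 0 in the top row and the row of TET partners. They lie below 0 in the rows of 2-oxoglutarate, methyl donors and S phase, and on both sides of 0 in the row of cofactor handling.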

How the data were processed

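RNA-seq counts of 6 libraries of MDA-MB-231 cells were analysed, 3 treated with 100 μM vitamin C for 3 days and 3 controls, grouped by their labels. Per the labels and the study's methods, the authors called bases with CASAVA 1.4, trimmed reads with Trim Galore, aligned them with STAR to hg38 and deposited unnormalised counts for each Ensembl gene. Strand setting, STAR version and annotation release were not given in the sources used here. The deposited table with all 6 libraries matched the single files in 364074 values. The 4 summary lines of each file (50.6% to 69.7% of read pairs) were left out. Symbols, positions and lengths came from GENCODE 44 (93.2% of identifiers matched).

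Differences were tested in R 4.3.3 with edgeR 4.0.16 (TMM factors, filterByExpr with a minimum count of 10, quasi-likelihood F test, Benjamini-Hochberg adjustment over all 15261 genes, threshold 0.05). The common biological coefficient of variation was 9.40%. Intervals are t intervals of the edgeR estimate. DESeq2 1.42.0, limma 3.58.1 (voom), other normalization factors, filters and edgeR tests, a replicate block and each library left out were alternatives. Offsets for GC content and length, thinning to the shallowest library, and a fit without both control 1 and vitamin C 2 were added after the data were seen. The fits were tested on simulated data.

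The 10 genes, the lists and the tests were chosen with earlier results of these data known. All 10 genes were named, and of each list the called genes or, where none was called, the 2 with the smallest p, with the 3 most abundant germline genes. Replicate pairs of a group differed by more than sampling noise. Promoter windows came from RefSeq (GRCh38.p14).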

Additional observations from a re-analysis of the deposited data

How the results depend on the processing

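The number of the 10 genes called was 2 under the reported fit and ranged from 0 to 2 when single libraries were left out, where the 2 without vitamin C 3 were DNMT3A, higher, and UHRF1, lower. It was 3, all higher, with edgeR's exact test and with its likelihood ratio test. It was 1 with library sizes alone, 1 with the replicate block and 1 with the correction for GC content and length. It was also 1 when both the reported edgeR fit and DESeq2 had to call a gene. It was 0 after thinning to the shallowest library and 0 without control 1 and vitamin C 2 together. All genes called numbered 1080, and 128 to 1900 with single libraries left out, 2245 with no count filter, 1933 with edgeR's exact test, 1982 with its likelihood ratio test and 268 without control 1 and vitamin C 2 together. The cause was not tested. The share of calls that were higher was 50.8%, against 64.6% with upper-quartile factors, 40.6% with DESeq2 and 37.9% with the GC and length correction. TET1 had a log2 fold change of 0.02, and of -0.0062 with no count filter, -0.00063 with the GC and length correction, -0.0063 after thinning, -0.13 without control 1 and vitamin C 2 together, and -0.11 to 0.16 with single libraries left out. TET3 had 0.03, and -0.0705 with the GC and length correction, -0.0052 without control 1 and vitamin C 2 together, and -0.13 to 0.16 with single libraries left out. The other 8 genes kept their direction in all 19 settings, and neither TET1, TET2, TET3, DNMT1, TDG nor IDH2 passed in any of them. Same-numbered libraries did not deviate together (correlations -0.02, -0.06 and -0.05 over 15261 genes, and no library correlated best with its own number), so the numbers give no pairing. With the replicate block 731 genes were called, DNMT3A passed (adjusted p = 0.0484) and DNMT3B did not (0.0785). DNMT3A did not pass after thinning (0.0521) or without control 1 and vitamin C 2 together (0.111). With no count filter IDH1 passed (adjusted p = 0.000866) and DNMT3B did not (0.0586). TET1, DNMT3A and DNMT3B had the fewest counts of the 10 genes, 76 to 306 per library.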
